A study of Mus musculus with 8 samples.

Results

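The untreated baseline was 3 arrays of mouse embryonic stem cells (ESCs) that had received no actinomycin D, out of 8 arrays in the series. ESCs are self-renewing cells derived from the early embryo. All 8 cultures were grown in ESC medium with LIF (leukaemia inhibitory factor, a cytokine that keeps ESCs dividing undifferentiated). The medium also held 250 nM PD173074, which blocks the kinase of fibroblast growth factor (FGF) receptors, so the inhibitor was present in the baseline too. The 3 arrays were chosen by their label alone, a time of 0 h and no treatment, although their titles carry the actinomycin D abbreviation like those of the other 5. The remaining cultures received 5 µM actinomycin D, which blocks transcription, and 30 min later either ethanol vehicle (2 arrays used here) or 250 nM 4-hydroxytamoxifen (4OHT, 3 arrays), each for 4 h. The labels name no ESC line, genotype, passage or feeder layer, and leave the target of 4OHT unstated. The series is titled as a study of mRNA degradation regulated by Erk, and the untreated arrays are its starting point before transcription is blocked. The design text calls the replicates biological, and the p-values below measure the spread between these arrays.

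Mouse ESCs in LIF hold a naive pluripotent state, in which the transcription factors Oct4 (Pou5f1), Sox2 and Nanog act with LIF-driven factors such as Klf4, Tfcp2l1 and Esrrb. LIF binds Lifr and gp130 (Il6st), and their kinases activate Stat3. FGF4, which ESCs make themselves, signals through FGF receptors, Grb2, Ras, Raf, Mek and Erk, and this arm primes the cells to leave the naive state. Erk signalling induces its own brakes, among them the Sprouty and Spred proteins and the dual-specificity phosphatases, and it induces short-lived immediate early transcripts such as Fos and Egr1.

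Each array measured total RNA in the green channel of a single-colour Agilent chip. Values below are relative log2 signals, the log2 of a probe's processed signal minus the log2 of that array's 75th percentile. A value of 0 is therefore the 75th percentile of the array, and each step of 1 is a doubling of probe signal. Triplets of values are given in the order of untreated replicates 1, 2 and 3. A gene symbol was called present when at least 1 of its probes was well above background on all 3 untreated arrays, absent when no probe was on any of them, and partial in between. The value shown for a symbol is that of its brightest probe. Probe brightness depends on the probe as well as on the RNA, so it gives no order of mRNA abundance between genes.

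At the 75th percentile, processed signals were 333, 457 and 405 units for the untreated cultures, against 166 and 205 units after vehicle and 180 to 209 units after 4OHT. No spot was saturated. Untreated replicate 2 stood apart in technical readings. It had 75.7% of spots well above background against 67.3% and 61.0%, and 448 spots marked non-uniform against 14 and 9. Its 25th percentile was 12.6 units against 4.13 and 4.24. Over the 32244 present probes, which share their probe sequences between arrays, the Pearson correlation was 0.995 between replicates 1 and 3, and 0.989 and 0.988 between replicate 2 and each of them. The untreated and vehicle arrays came from 1 slide, and the 4OHT arrays from another.

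Of 55236 probes with a value on all 3 arrays, 32244 (58.4%) were present, 11814 were absent and 11178 were partial. Of 20867 gene symbols, 14733 (70.6%) were present, 3025 (14.5%) were absent and 3109 were partial. Without replicate 2 the present symbols numbered 14797. Requiring every probe of a symbol to be present left 13622. The smell receptors served as a yardstick of dim signal. Of the 1057 olfactory receptor genes, which belong to the nose's sensory neurons, 183 (17.3%) were present, and their median relative log2 signal was -6.21 against -1.53 over all symbols. The 95th percentile of the olfactory receptor genes was -3.09, and 12519 symbols (60.0%) lay above it. Well above background therefore included many dim probes, and values near or under -3.09 are given below with that limit. Counts of list members present are to be read against the 70.6% of all symbols. The median standard deviation of a present symbol over the 3 arrays was 0.14 log2 units.

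The core of the pluripotency network was present and bright. All 19 general pluripotency genes were present, with a median relative log2 signal of 4.66, beside 70.6% present and a median of -1.53 over all symbols. Dppa5a, an RNA-binding protein of ESCs, read 8.36, 8.10 and 8.15. Pou5f1, which encodes Oct4, read 6.97, 6.61 and 6.79, and Zfp42, which encodes the ESC marker Rex1, read 7.29, 7.38 and 7.02. Sox2, the DNA-binding partner of Oct4, read 4.49, 4.32 and 4.33. The 3 cultures lay within 0.36 log2 units of each other for each of these genes. The homeodomain factor Nanog read 4.50, 4.28 and 4.44 on its brighter probe and -2.49, -2.51 and -2.70 on the other, so the level of the signal depended on the probe although both were present. L1td1, Fgf4, Utf1, Gdf3 and Lin28a, other genes of pluripotent cells, were also among the brightest of the list, between 5.62 and 7.80 on the single arrays. The dimmest of the 19 was Foxd3, a forkhead repressor, at 2.98, 3.03 and 2.94.

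The naive factors were present as a group, 22 of 22, with a median of 4.62. Esrrb, an orphan nuclear receptor, read 7.28, 7.10 and 7.08. The LIF-responsive factor Klf4 read 5.40, 5.65 and 5.52, Tfcp2l1 read 5.57, 4.91 and 5.62, and Klf2 read 6.12, 5.81 and 5.91. Tbx3, a T-box factor downstream of LIF, read 5.58, 5.53 and 5.74. These 5 factors lay far above the olfactory yardstick on every array, and Tfcp2l1 alone among them spread by more than 0.5, with replicate 2 lowest. Gbx2, a homeodomain factor of the LIF arm, was dimmer at 1.20, 1.34 and 1.64. Dppa3, the maternal factor Stella, was uneven at 0.34, 1.25 and -0.22, with replicate 2 highest. Sox15 and the adhesion molecule Pecam1 were the only members below 0 on all 3 arrays.

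Genes of the later, primed epiblast divided into bright and dim members. Of 15 genes, 12 were present, and their median over all 15 was 0.26. The de novo DNA methyltransferase Dnmt3b read 5.09, 5.20 and 4.80, the homeodomain factor Otx2 read 4.94, 4.61 and 4.46, and the ligand Nodal read 4.45, 4.28 and 4.20. Fgf5, the ligand most used to mark primed epiblast, was partial at -3.93, -4.46 and -5.26. The BMP and Nodal antagonist Cer1 was absent at -7.48, -7.32 and -7.14, and the ligand Wnt8a was partial. Pou3f1 read 0.80, 0.72 and 0.67, and Sox3 read 2.26, 1.45 and 2.29. Dnmt3a was dimmer than its paralogue, at -1.29, -1.80 and -2.14, a comparison of different probes that gives no order of abundance.

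Genes of the 2-cell-like state, a rare state of ESC cultures that resembles the cleaving embryo, were mostly dim. Of 14 measured, 5 were present, 4 were partial and 5 were absent. Zscan4c read -3.68, -1.77 and -4.20, with replicate 2 highest. The Tdpoz and Tcstv genes Tdpoz1, Tdpoz3, Tdpoz4 and Tcstv3 were absent. The bright values of Sp110 and Zfp352 in this list came from a single probe each. The brightest Sp110 probe averaged 7.86 while its other probes averaged -3.67 and -3.54, and the 2 probes of Zfp352 averaged 3.58 and -5.49.

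The transcription factors that define primitive endoderm, the first extraembryonic endoderm, were dim, while genes of its basement membrane were bright. Of 18 genes, 17 were present, but the list median was -2.16. The factor Gata6 read -3.89, -3.82 and -3.01, Gata4 read -2.40, -2.47 and -2.39, and Sox17 read -4.26, -3.72 and -3.69. The receptor Pdgfra read -4.49, -4.72 and -4.04. Gata6, Sox17 and Pdgfra thus lay below the olfactory yardstick in their means, and Gata4 lay above it on all arrays. Sparc, a secreted matrix glycoprotein, read 7.76, 7.40 and 7.56, and the laminin chains Lama1, Lamb1 and Lamc1 read between 4.29 and 5.69. The yolk sac protein Afp was absent at -7.82, -7.57 and -7.31.

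Trophoblast genes, those of the placental lineage, were present in 11 of 16, near the 70.6% of all symbols, with a median of -1.84. The defining factor Cdx2 was partial at -4.68, -3.34 and -5.56. Elf5 and Tpbpa, markers of trophoblast stem cells and of the spongiotrophoblast, were absent at values from -7.90 to -6.75. Tfap2c, which ESCs and germ cells also use, read 2.27, 1.32 and 2.44. Eomes read -1.57, -1.64 and -1.76. Gcm1 read 6.01, 5.78 and 6.01 on its brightest probe, and its 3 probes averaged 5.93, 5.66 and -5.03.

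Primitive streak and mesoderm genes were present in 10 of 17, with a median of -4.78. The T-box factor brachyury (T) was partial at -5.30, -5.51 and -5.27, and Mesp1 and Mixl1 were partial as well. Kdr, a receptor of vascular endothelial growth factor, was the brightest at 2.27, 1.99 and 2.22. The streak ligands Wnt3 and Wnt3a and the limb and heart factor Tbx5 were absent. Neuroectoderm genes were present in 11 of 17, with a median of -3.32. Sox1 read -0.71, -1.42 and -0.68, Pax6 read -2.53, -3.33 and -4.09, and the neural factors Neurog2 and Olig2 were partial, each above background on 1 array. The intermediate filament gene Nes, common in dividing progenitors, read 0.45, 0.77 and 0.44.

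Genes of differentiated organs were mostly dim or absent, with a few bright exceptions. Among endoderm organ genes 9 of 16 were present, and Alb, Apoa1, Gcg, Pdx1 and Nkx2-1 were absent. Among heart and skeletal muscle genes 9 of 15 were present, and Actc1, Ckm, Mef2c and Myf5 were absent. Blood genes were present in 9 of 15, with Hbb-bt, Lyz2, Ms4a1 and Spi1 absent and the pan-leukocyte gene Ptprc at -4.91, -3.83 and -4.23. The endothelial genes Cdh5, Emcn and Erg were absent, and 7 of 11 in that list were present. The neuronal list differed in that none of its 14 genes was absent. Stmn2, a microtubule regulator of neurons, read 5.58, 5.33 and 5.09, Tubb3 read 3.46, 3.55 and 3.26, and the neurofilament gene Nefl read 2.61, 2.52 and 2.33. The astrocyte gene Gfap was dim at -3.00, -2.71 and -3.17.

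Fibroblast genes were examined because ESCs can be grown on feeder cells. Of 19 genes 13 were present (68.4%), near the 70.6% of all symbols, with a median of -2.77. Fn1, fibronectin, read 5.94, 5.90 and 6.04, and Vim, vimentin, read 5.29, 4.63 and 5.44. The collagens that fibroblasts make in quantity were dim, with Col1a1 at -3.06, -3.33 and -2.54, Col1a2 at -3.22, -2.94 and -3.20, and Col3a1 partial. Postn and Lum were absent, and Dcn and Prrx1 were partial. In RNA from whole cultures, fewer cells of a type and less RNA per cell cannot be told apart, and the part of any fibroblast in these values was not tested. Germ cell genes were present in 16 of 22 (72.7%), also near that share. Tex19.1, which is shared with ESCs, read 5.24, 4.88 and 4.91, the kinase Kit read 2.96, 3.04 and 3.15, and the meiotic genes Sycp2 and Figla were absent.

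**Figure D1:**
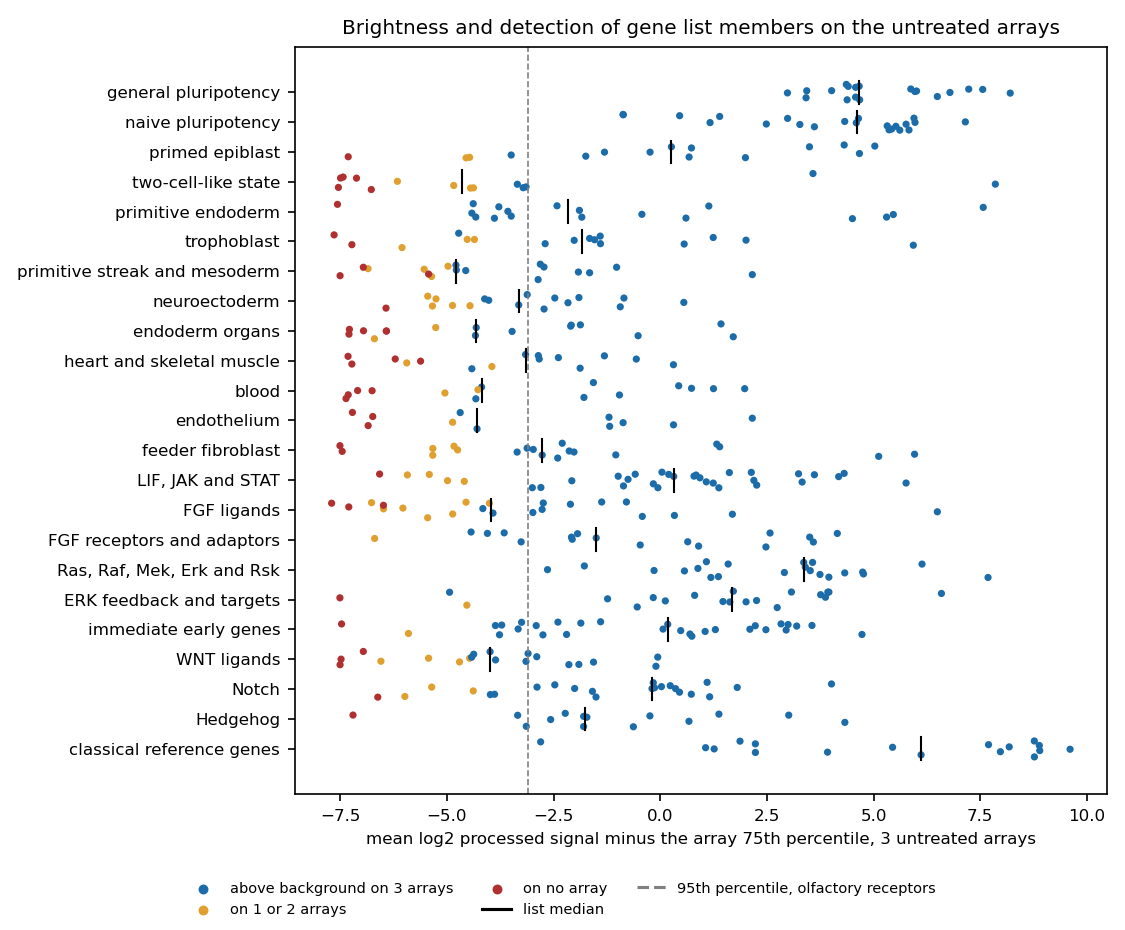
Each point is a gene's mean relative log2 signal over the 3 untreated arrays (horizontal axis), grouped in rows by list and coloured by the number of arrays with a probe well above background, and the black ticks are list medians. The pluripotency rows, with medians of 4.66 and 4.62, lie right of the dashed line at -3.09 (95th percentile of olfactory receptor genes), which bears on single genes, and the streak and mesoderm median is -4.78.

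The LIF pathway was present from receptor to feedback. Of 33 genes in the LIF, JAK and STAT list, 28 were present and 4 were partial, and the median was 0.32. The receptor chain Lifr read 3.30, 3.19 and 3.49, and its partner Il6st read 2.15, 1.99 and 2.27. Jak1 had a mean of 2.20 and a range of 0.36, and the transcription factor Stat3 read 3.59, 3.47 and 3.78. Socs3, the inhibitor that Stat3 induces, was the brightest of the list at 5.64, 5.94 and 5.71. The transcript of the ligand itself, Lif, was partial at -5.03, -3.96 and -5.97, as were those of the related ligands Osm and Il6.

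Among FGF ligands the signal was concentrated in Fgf4. Of 22 ligands 12 were present, 7 were partial and 3 were absent, namely Fgf12, Fgf16 and Fgf21, and the median was -3.96. Fgf4, the ligand ESCs make, read 6.63, 6.57 and 6.29. The next brightest, Fgf23, read 1.67, 1.55 and 1.85. Fgf8 read -2.38, -1.52 and -2.41, and Fgf2 was partial at -5.84, -3.04 and -5.73.

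The receptors that PD173074 inhibits and the adaptors below them were nearly all present, 16 of 17. Fgfr1 read 3.69, 3.26 and 3.56, Fgfr3 read -1.48, -1.63 and -1.39, Fgfr2 read -1.67, -2.14 and -2.01, and Fgfr4 read -2.56, -1.38 and -2.30. The adaptors Grb2, Shc1, Gab1 and Frs2 read between 2.44 and 4.20 on the single arrays. The co-receptor Kl was partial. Every measured member of the Ras, Raf, Mek, Erk and Rsk list was present, 21 of 21, with a median of 3.36. The kinases Map2k1 (3.95, 3.96 and 3.94) and Mapk3 (3.63, 3.65 and 3.43) varied by at most 0.22 between arrays. Pebp1, which binds and restrains Raf, was the brightest at 7.79, 7.57 and 7.69.

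Transcripts of Erk targets and brakes were present although the receptor inhibitor was in the medium. Of 20 genes 18 were present, with a median of 1.67. The ETS factor Etv5 read 6.71, 6.52 and 6.55, and its relative Etv4 read 3.83, 3.48 and 3.98. Dusp6, the phosphatase that acts on Erk, read 3.91, 3.82 and 4.13. The Sprouty gene Spry1 read 1.50, 1.67 and 1.25, Spry2 read 0.63, 0.98 and 0.82, and Spry4 read -0.70, -0.42 and -0.50. Spry3 was absent at -7.73, -7.54 and -7.26, and Dusp5 was partial. No array without the inhibitor is part of the series, so the level it leaves could not be set against an uninhibited one.

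Of 29 immediate early genes 27 were present, with a median of 0.18 and a wide spread between members. Nr4a1, an orphan nuclear receptor, read 4.92, 4.40 and 4.86, and Jund read 3.52, 3.56 and 3.58. The connective tissue factor Ccn2 read 3.41, 3.43 and 2.76, and the zinc finger factors Klf10, Klf6 and Egr1 read between 1.85 and 3.16. Myc read 2.06, 2.09 and 2.16. Fos read -1.34, -1.47 and -1.38, and Fosb, Junb, Egr4, Nr4a2 and Fosl1 lay between -3.31 and -1.66. Egr3 was partial, and Nr4a3 was absent at -7.68, -7.48 and -7.25, close to the dimmest readings on the array.

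Other receptor tyrosine kinases were present in 41 of 54 (75.9%), beside 70.6% of all symbols. Ephb3 read 6.67, 6.41 and 6.45, Tyro3 read 5.25, 5.04 and 5.03, and Epha2 read 3.95, 4.14 and 3.70. Igf1r, the receptor of insulin-like growth factors, read 0.45, 0.04 and 0.58, and Insr read -3.20, -2.99 and -3.83. Ephb1, Ros1, Epha3, Erbb4, Ret and Musk were absent. The Epha5 value of 5.60, 5.22 and 5.38 came from 1 of its 2 probes, and the other averaged -5.46.

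The WNT pathway showed dim ligands beside present receptors and transducers. Of 19 ligands 12 were present, with a median of -3.99, and Wnt2b, Wnt3 and Wnt3a were absent. Wnt1 was the brightest, at 0.07, -0.05 and -0.19. Of 32 receptors and transducers 31 were present, with a median of 0.55. The transducer Ctnnb1, β-catenin, read 5.11, 4.81 and 4.91, its kinases Gsk3a and Gsk3b read 4.63, 4.53 and 4.59 and 2.56, 2.38 and 2.62, and Tcf7l1, the repressor of pluripotency genes, read 2.56, 2.44 and 2.31. The feedback target Axin2 was dim at -2.58, -2.53 and -2.78. The stem cell receptor Lgr5 was the absent member, at -7.15, -7.58 and -7.29.

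BMP, activin and TGF-beta ligands and antagonists were present in 26 of 37 (70.3%), near the 70.6% of all symbols. Gdf3 read 6.14, 5.94 and 5.83, and Bmp4 read 4.57, 4.84 and 4.70. The Nodal antagonists varied, with Lefty1 at 3.66, 2.71 and 2.14 and Lefty2 at 3.90, 2.91 and 2.72, both highest on replicate 1. Inhbb, an activin subunit, read 2.05, 1.27 and 3.04. Bmp15, Amh, Gdf6, Gdf10 and Cer1 were absent. Of 29 receptors, Smads and Ids 26 were present. The Nodal co-receptor Tdgf1 read 4.33, 4.32 and 4.45, Smad4 read 4.06, 3.82 and 3.92, and the BMP targets Id1, Id2 and Id3 read between 1.58 and 3.29. Smad9 and Acvr1c were absent.

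Notch genes were present in 19 of 23, and Heyl was absent. The DNA-binding protein Rbpj read 4.12, 3.83 and 4.09, and the receptor Notch3 read 1.44, 1.11 and 0.93. Hedgehog genes were present in 13 of 14. The transcription factor Gli1 read 4.40, 3.96 and 4.62 and the transducer Smo read 3.20, 2.87 and 2.96, while the ligand Shh was absent at -7.67, -6.67 and -7.26 and the receptor Ptch1 read -1.64, -2.07 and -1.68. Nuclear receptors were present in 34 of 48 (70.8%), near the 70.6% of all symbols. Nr0b1, which represses other nuclear receptors and is enriched in ESCs, read 5.47, 5.30 and 5.19, Rarg read 5.38, 5.27 and 4.93, and Nr5a2 read 4.84, 4.25 and 4.70. Hnf4g, Nr1h5, Nr1i2, Nr2e1, Nr2e3, Pgr, Thrb and Nr4a3 were absent.

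Genes of interferon and innate sensing were present in 21 of 34. Irf3 read 3.70, 3.62 and 3.80, and the RNA sensor Ddx58 read 3.14, 3.21 and 3.17. The interferons Ifnb1 and Ifng, the factor Irf4 and the receptors Tlr1, Tlr3, Tlr6 and Tlr8 were absent. The interferon-induced Ifit1 and Irf7 were above background on 1 array each, at -2.63, -5.84 and -7.49 and at -5.90, -2.41 and -5.66.

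Classical reference genes were present throughout, 17 of 17, with a median of 6.12. The tubulin Tuba1b was the brightest symbol of the array at 9.78, 9.51 and 9.54. Actb read 9.08, 8.79 and 8.81, Gapdh read 8.95, 8.75 and 8.61, and Tbp, the TATA-binding protein, read 2.21, 2.21 and 2.27. Hprt, a purine salvage enzyme, was the only reference gene under 0, at -2.96, -2.52 and -2.93. Large complexes were detected almost whole. All 83 cytosolic ribosomal protein genes were present with a median of 8.44. Present members, with the family median in parentheses, numbered 77 of 78 mitochondrial ribosomal protein genes (4.46), 46 of 46 complex I subunits (5.55), 36 of 38 proteasome subunits (5.57), 16 of 16 tRNA synthetases (4.90), 11 of 11 RNA polymerase II subunits (5.41) and 27 of 27 Mediator subunits (2.97). Of 31 genes of the citric acid cycle 30 were present, and the partial member was the testis form Pdha2.

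Among enzymes and structural proteins encoded by several genes, the widely used form and the tissue-restricted form were often at opposite ends of the array. The elongation factor Eef1a1 read 8.10, 7.89 and 7.77, and Eef1a2, its form in muscle and neurons, was absent at -7.49, -5.55 and -7.34. The glucose transporter Slc2a1 read 6.45, 6.77 and 6.39, and the liver and islet form Slc2a2 was absent at -6.55, -7.72 and -7.46. Ldha (8.76, 8.61 and 8.63) was bright, and the testis form Ldhc read -2.86, -1.27 and -3.10. The separation was not general: the heart and muscle form Cox7a1 read 3.31, 3.35 and 3.20 beside Cox7a2 at 6.26, 6.12 and 6.16, and the muscle enolase Eno3 read 2.08, 1.61 and 1.82 beside Eno1 at 8.51, 7.63 and 8.27. Of 17 ribosomal protein genes in the paralogue list all were present, and the muscle form Rpl3l was the dimmest at -4.70, -3.36 and -3.75. A probe can also cross-hybridise to a near-identical paralogue or processed pseudogene, which these values cannot separate.

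**Figure D2:**
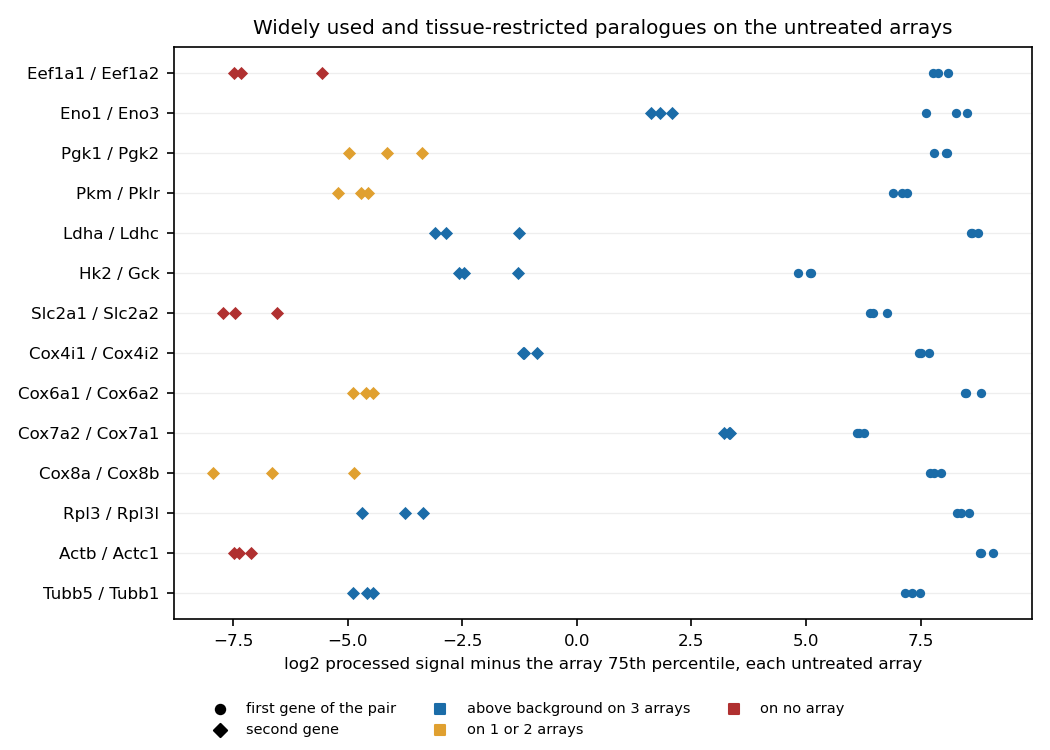
Relative log2 signal (horizontal axis) on each of the 3 untreated arrays for 14 pairs of paralogues, with the widely used gene as circles and the tissue-restricted gene as diamonds, coloured by the number of arrays with a probe well above background. The diamonds of Eef1a2, Slc2a2 and Actc1 are above background on no array, while Cox7a1 and Eno3 are present on all 3.

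Chromatin regulators were present almost without exception. All 16 genes of DNA methylation and its removal were present. The cofactor Dnmt3l read 6.51, 6.38 and 6.57, the maintenance factor Uhrf1 read 6.07, 6.09 and 6.12, and the hydroxylases Tet1 and Tet2 read 4.34, 4.57 and 4.40 and 3.36, 3.44 and 3.65. Of 30 Polycomb and histone H3 methylation genes 29 were present. The Polycomb subunits Eed, Suz12 and Ezh2 read 6.93, 6.80 and 6.74, 4.08, 3.93 and 4.03, and 3.86, 3.88 and 3.97. Prdm9, a meiotic methyltransferase, was partial. All 11 telomere genes were present, among them Tert at -1.18, -1.53 and -1.20.

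Of 32 cyclins, cyclin-dependent kinases and their regulators 30 were present. Ccne1, which drives entry into S phase, read 6.35, 6.17 and 6.19, while its paralogue Ccne2 was absent at -8.06, -7.71 and -7.54, as was Ccnb3. Cdk4 read 6.92, 6.72 and 6.63. The inhibitors Cdkn1a (1.22, 1.27 and 1.37) and Cdkn2a (2.49, 1.20 and 1.95) were present. In the Bcl2 family 17 of 18 were present, with Mcl1 at 5.96, 5.89 and 5.65 and Bax at 5.67, 5.51 and 5.43. The epithelial cadherin Cdh1 read 3.64, 3.91 and 3.53, and the mesenchymal factor Zeb2 was partial.

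Imprinted genes were present in 26 of 31. Impact, Mirg and Plagl1 read between 2.73 and 4.54, and the growth factor Igf2 read -4.38, -3.42 and -4.74. The Y-linked Eif2s3y was bright at 4.27, 3.90 and 3.90, and Ddx3y read -0.27, 1.34 and 2.13. Kdm5d, also Y-linked, was absent. Xist, the RNA that coats the inactive X chromosome, was absent at -7.51, -7.35 and -7.14.

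Transcription factor families differed in the share of members detected. Of 38 Hox genes, which pattern the body axis, 14 were present, 14 were partial and 10 were absent, with a median of -5.15. Present members numbered 15 of 19 Sox genes, 34 of 44 forkhead genes, 16 of 17 Klf genes and 6 of 6 Gata genes. Of 338 Zfp zinc finger genes 316 (93.5%) were present. Some families of surface and secreted proteins were sparse, with 33 of 251 vomeronasal receptors, 8 of 32 chemokines, 12 of 47 protocadherins and 5 of 21 prolactin family genes present. Others were not, with 245 of 344 solute carriers (71.2%), 17 of 26 integrins (65.4%) and 23 of 42 collagens (54.8%). These shares can be read against 17.3% of olfactory receptor genes and 70.6% of all symbols.

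Of the 20 brightest symbols, 11 were ribosomal protein genes, counting the fusion gene Fau, and Tuba1b, the histone gene H2ac12 and the translationally controlled Tpt1 were among the rest. Others on that list rested on a single probe that the symbol's remaining probes did not match. The bile acid transporter Slc10a1 read 9.13, 8.88 and 8.89, and its other probe was absent with a mean of -7.14. Nlrp1a read 9.20, 8.76 and 8.88 against a mean of -4.99 on the other probe, and Kctd14 had means of 9.02, -3.29 and -3.48 on its 3 probes. Over the 5505 symbols with several probes, the median gap between the brightest and the dimmest probe was 2.15 log2 units. In 506 of them (9.19%) 1 probe was present while another was absent, and in 767 the gap was over 5. Where the probes of a symbol differ in this way, its present call rests on the brighter probe.

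The untreated cultures were close to each other for most genes and far apart for a few. The 8358 present symbols with a mean over 0 had a median standard deviation of 0.11, 90 of them ranged over more than 1 log2 unit, and 6 over more than 2. The widest range was that of the imprinted gene Mest, at 3.97, -3.52 and 3.69. All 3 Mest probes were low on untreated replicate 2, on vehicle replicate 1 (-3.53 on the brightest probe) and on 4OHT replicate 1 (-2.97), and high on the remaining arrays, between 3.69 and 4.25 on that probe. Nmnat1, an enzyme of NAD synthesis, stood out on another array, at 1.17, 1.18 and 8.20. On the 5 treated arrays it read between 0.95 and 1.14, so the high reading of its single probe was on untreated replicate 3 alone. Frmd4b was likewise high on replicate 3, at -4.45, -4.26 and 0.69.

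Among symbols with a signal of at least -2 on an untreated array, replicate 2 was more than 2 log2 units above both other untreated arrays for 125 and below both for 3. Replicate 1 was above for 2 and below for 8, and replicate 3 was above for 5 and below for 10. Some of these genes shared the pattern of Mest across the 8 arrays in the opposite direction, and were chosen here after their values were seen. The glutathione peroxidase Gpx2 read 1.47, 4.25 and 1.51 when untreated, then 5.56 and 2.78 with vehicle, then 5.84, 2.96 and 3.01 with 4OHT. Smooth muscle actin Acta2 read -3.00, 0.08 and -3.14, then 0.94 and -2.66, then 0.92, -2.80 and -2.70. The matrix protein Thbs1 read -2.98, -0.48 and -3.67, then -0.28 and -4.64, then -0.31, -3.48 and -3.75. Zscan4f, a marker of the 2-cell-like state, read -4.56, -1.26 and -7.32, then -1.68 and -6.73, then -1.24, -6.57 and -6.29.

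For these genes untreated replicate 2, vehicle replicate 1 and 4OHT replicate 1 were high and the other arrays low. Over 17486 probes, the deviations from the group means correlated at 0.55 between untreated replicate 2 and vehicle replicate 1 and at 0.63 between untreated replicate 2 and 4OHT replicate 1. Of the 19 fibroblast list genes, Acta2, Tagln and Col3a1 were more than 1 log2 unit above both other untreated arrays on replicate 2, and none was more than 1 below both. At a margin of 0.5, the same 3 lay above and Vim lay below. Over all symbols replicate 2 also stood above both others more often than below, for 125 against 3 at the margin of 2 used above. The share of all symbols at a margin of 1 was not counted. The part of fibroblast RNA in these differences was not tested. The raised count of non-uniform spots was found on untreated replicate 2 alone of these 3 arrays, with 448 spots against 2 on vehicle replicate 1 and 2 on 4OHT replicate 1. None of the 19 general and 22 naive pluripotency genes lay more than 1 log2 unit above or below both other untreated arrays on replicate 2. At a margin of 0.5, Dppa3 lay above them and Tfcp2l1 below.

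**Figure D3:**
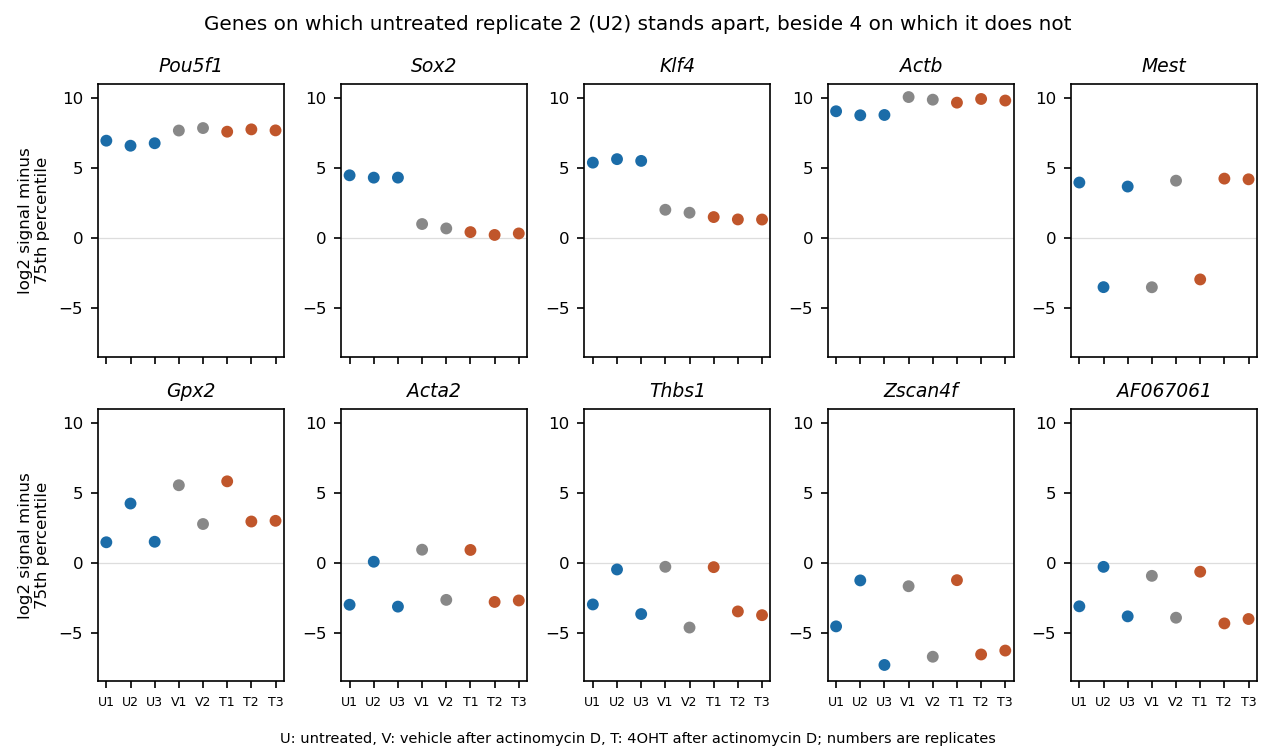
Relative log2 signal (vertical axis) of 10 genes on each of the 8 arrays, with untreated replicates U1 to U3 in blue, vehicle V1 and V2 in grey and 4OHT T1 to T3 in orange. Mest is low and Gpx2, Acta2, Thbs1, Zscan4f and AF067061 are high on U2, V1 and T1, whereas Pou5f1, Sox2, Klf4 and Actb differ little between U1, U2 and U3.

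The untreated arrays were then set against the arrays after actinomycin D, to see which baseline signals were lost over the hours without transcription. Both contrasts use the same 3 untreated arrays and so are not independent of each other. The fit was limma over 8 arrays and 28493 features, two-sided, with Benjamini-Hochberg adjustment and calls at an adjusted p under 0.05. A feature was tested if 1 or more groups had it well above background on each of their arrays. Features could thus enter through the untreated arrays alone, as Fos did, which tilts the list counts below towards lower calls. Compared with untreated cultures, 15.9% of features were lower and 41.6% were higher with vehicle, while with 4OHT 18.7% were lower and 41.0% were higher. The 75th percentile used for scaling was itself lower on the treated arrays. The split depended on the scaling. Lower calls made up 27.7% of calls in the vehicle contrast, 39.8% after quantile normalization, 15.2% after normexp background correction and 99.7% with no scaling. In the 4OHT contrast they made up 31.4%, 39.2%, 15.6% and 99.4%. The median of all features was 0.40 (vehicle) and 0.31 (4OHT) higher than untreated, and list medians below are given after subtracting it. Slide and group cannot be told apart in the 4OHT contrast.

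Among the lists described here, the immediate early genes and the Erk targets had the lowest medians after transcription was blocked. The Irx genes, a family not described here with 3 members tested, lay below the Erk targets, at -2.466 (vehicle) and -2.725 (4OHT). Of the 27 immediate early genes that passed the detection filter, 20 were lower and 1 was higher on the vehicle arrays, with a median of -2.98 relative to all features, and 21 were lower and 2 higher on the 4OHT arrays, with a median of -2.80. After normexp background correction these medians were -1.36 and -1.27. With only features well above background on all 8 arrays they were -3.12 and -2.97. Of 18 Erk feedback genes and targets 12 were lower and 3 higher (vehicle, -2.42), and 11 lower and 2 higher (4OHT, -2.36). Of all features 15.9% (vehicle) and 18.7% (4OHT) were lower. Snai1, a repressor of epithelial genes, had read between -0.08 and 0.20 on the untreated arrays. It was above background on no treated array, at least 27.3-fold lower with vehicle (limma, Benjamini-Hochberg adjusted p = 1.08e-04) and at least 22.6-fold lower with 4OHT (adjusted p = 4.15e-05). Snai1 was picked for losing detection after treatment, so its folds and p-values are no separate support for these lists.

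The naive and general pluripotency genes, all present at baseline, separated into members that were lower and members that were not. Of 22 naive genes 9 were lower and 5 higher with vehicle (median -0.51), and 11 lower and 6 higher with 4OHT (median -0.59, or -1.04 after quantile normalization). Klf2, a Krüppel-like factor of the naive network, differed by -3.71 ± 0.13 (SE) with vehicle (limma, Benjamini-Hochberg adjusted p = 8.09e-06) and by -3.79 ± 0.12 with 4OHT (adjusted p = 2.68e-06). The Nodal transcript differed by -4.51 ± 0.12 and -4.71 ± 0.11 (limma adjusted p = 3.55e-06 and 1.15e-06). Socs3 differed by -4.81 ± 0.21 and -4.39 ± 0.19 (limma adjusted p = 1.89e-05 and 8.53e-06). In each of these genes every untreated array lay above every treated array. How many of all features do so was not counted. Of 19 general genes 7 were lower and 8 higher with vehicle, and 8 lower and 7 higher with 4OHT. Of all features, 15.9% were lower and 41.6% higher with vehicle, and 18.7% and 41.0% with 4OHT. The higher counts of the general genes were thus near the share over all features. Among the 16 Klf genes tested, 14 were lower with vehicle and 13 with 4OHT.

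The signalling chain from Ras to Rsk contrasted with its targets. Of 21 members 1 was lower and 15 were higher with vehicle (median 0.19 relative to all features), and 1 was lower and 16 higher with 4OHT (median 0.33). BMP, activin and TGF-beta receptors, Smads and Ids were lower in 15 of 26 with vehicle and 17 of 26 with 4OHT. Of all features, 15.9% were lower and 41.6% higher with vehicle, and 18.7% and 41.0% with 4OHT. The inhibitory Smad7 differed by -3.84 ± 0.16 and -3.84 ± 0.14 (limma, Benjamini-Hochberg adjusted p = 1.46e-05 and 4.65e-06). The difference between the chain and its targets was not itself tested, and the Ras to Rsk medians were not examined under other scalings.

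Most reference genes were higher on the main scale, but not all moved in the same direction. Of 17, 2 were lower and 14 higher with vehicle, and the median relative to all features was 0.59 (vehicle) and 0.58 (4OHT), but -0.08 and -0.10 after quantile normalization, so the direction rests on the scaling. Tbp differed by -1.06 ± 0.10 with vehicle and -1.71 ± 0.09 with 4OHT (limma adjusted p = 2.60e-04 and 1.64e-05). The 83 cytosolic ribosomal protein genes had 80 higher calls in each contrast, with medians of 0.76 and 0.68, and of -0.14 and -0.13 after quantile normalization. Of all features 41.6% (vehicle) and 41.0% (4OHT) were higher.

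Of 14932 symbols tested, 428 were present at baseline and above background on no vehicle array, and limma called 285 of them lower. On the 4OHT arrays the numbers were 559 and 354. Over all features 15.9% and 18.7% were called lower. These symbols were chosen for losing detection after treatment, so lower calls follow in part from the choice and are no separate support. The same holds for the folds and p-values of Snai1 above and of the lost symbols named below. Gains were few, with 3 symbols absent at baseline and present with vehicle (Cnga1, Vsnl1 and Smarca2) and 1 with 4OHT (Prob1). The treated arrays were dimmer before scaling, as the 75th percentiles above show, and the part of that in these counts was not tested. Among the symbols lost from detection, the largest fitted difference was that of Fam43a, which had read 1.30, 0.74 and 1.08. It was at least 54.5-fold lower with vehicle (limma, Benjamini-Hochberg adjusted p = 3.55e-06) and at least 45.2-fold lower with 4OHT (adjusted p = 1.32e-06). Tagap1 was at least 31.6-fold and at least 27.6-fold lower. Chac1, an enzyme that degrades glutathione, was at least 53.2-fold lower with 4OHT.

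Among symbols lost in the vehicle contrast, the 10 with the largest fitted difference included Zfp748, Zfp78 and Zfp39. These Zfp genes were at least 7.85-, 9.71- and 10.8-fold lower. Zfp87, Zfp429 and Zfp273 were among the 10 in the 4OHT contrast, at least 45.2-, 10.8- and 15.1-fold lower. Of the 316 Zfp genes tested, 239 were lower and 29 higher with vehicle and 244 were lower and 29 higher with 4OHT, beside the 15.9% and 18.7% lower of all features. Their medians were -1.67 and -1.63 relative to all features. With only features well above background on all 8 arrays they were -1.56 and -1.56. The median baseline signal of the 338 members was 0.19.

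**Figure D4:**
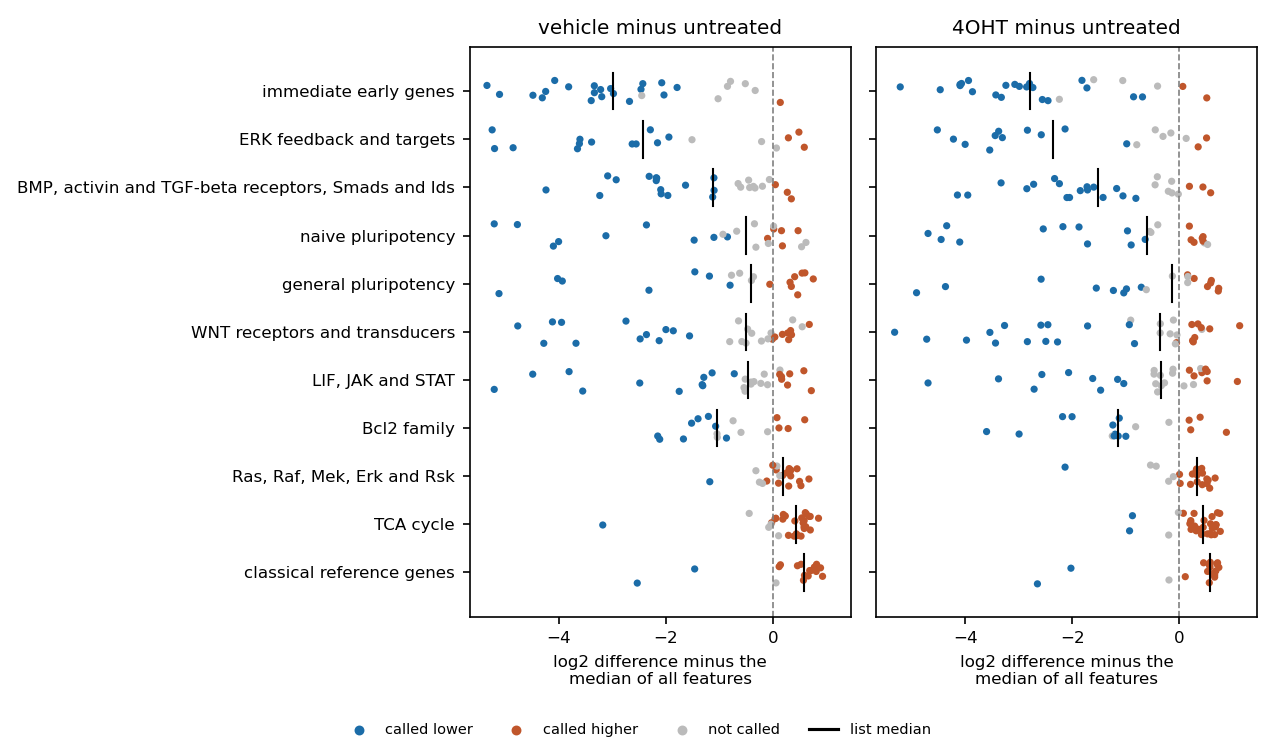
Each point is a gene's log2 difference from the untreated arrays after subtracting the median of all features (horizontal axis), for vehicle (left) and 4OHT (right), coloured by the limma call, which was made on the difference before that subtraction, with list medians as black ticks. Immediate early genes (medians -2.98 and -2.80) lie left of 0, and Ras, Raf, Mek, Erk and Rsk genes (0.19 and 0.33) lie close to it.

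The host transcript of the miR-17-92 cluster was among the baseline transcripts that were lower after actinomycin D. Mir17hg read 3.00, 2.74 and 2.94 when untreated, 0.16 and -0.09 with vehicle, and -0.09, -0.46 and -0.17 with 4OHT. It differed by -2.85 ± 0.15 (limma, Benjamini-Hochberg adjusted p = 3.59e-05) and -3.13 ± 0.14 (adjusted p = 8.62e-06). The groups did not overlap, a pattern whose share over all features was not counted. The cluster encodes 6 miRNAs within 836 bases at chr14:115043671-115044506 (GRCm38.p6, plus strand), and their mature sequences from RefSeq are shown because the host probe stands for all of them at once. Capitals mark the seed, bases 2 to 8 from the 5′ end. The 6 share 4 seeds, with miR-17 and miR-20a alike and miR-19a and miR-19b alike. The mature miRNAs were not measured here.
mmu-miR-17-5p: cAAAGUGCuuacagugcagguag
mmu-miR-20a-5p: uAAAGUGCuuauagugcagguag
mmu-miR-18a-5p: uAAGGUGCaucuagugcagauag
mmu-miR-19a-3p: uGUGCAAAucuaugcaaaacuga
mmu-miR-19b-3p: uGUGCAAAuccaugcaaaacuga
mmu-miR-92a-3p: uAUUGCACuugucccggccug

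The letters of the promoters were a feature that the detection rule did not use. CG pairs are depleted from most of the mouse genome but kept in CpG islands, which lie at the starts of most broadly used and developmental genes. RefSeq windows of 300 bases (250 before to 50 after the start, GRCm38.p6) were matched by symbol, and 13835 of 20867 symbols had a single window. The median number of CG pairs was 3 for absent, 4 for partial and 19 for present genes. At least 10 CG pairs were found for 18.6% of absent, 25.5% of partial and 75.8% of present genes, against 58.9% of all 13835 genes matched and 43.5% of all windows in the table, measured on the array or not. Within present genes the share was 46.8% in the dimmest and 91.0% in the brightest of 4 bins of equal size by signal. Median CG pairs of present and absent genes were 1 and 1 for olfactory receptors, which made up 364 of the 2177 absent genes. The medians were 13.5 and 17 for Zfp genes and 29 and 43 for WNT ligands. For Hox, forkhead, endoderm organ and keratin-associated protein genes they were 14.5 and 13, 25.5 and 18.5, 12.5 and 7, and 2.5 and 2. Some groups were small, with 3 absent WNT ligands. The part of family membership in the overall contrast was not tested.

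The 250 bases before the start are shown for a paralogue pair and for the brightest and an absent tissue gene, with each CG in capitals. They were read from RefSeq in gene direction. Eef1a1 (present, chr9:78481725-78481974, minus strand) has 18 CG pairs and Eef1a2 (absent, chr2:181157016-181157265, minus strand) has 4. Tuba1b (present, chr15:98934391-98934640, minus strand) has 35, and Alb, the liver's serum albumin gene (absent, chr5:90460620-90460869, plus strand), has 2.
Eef1a1: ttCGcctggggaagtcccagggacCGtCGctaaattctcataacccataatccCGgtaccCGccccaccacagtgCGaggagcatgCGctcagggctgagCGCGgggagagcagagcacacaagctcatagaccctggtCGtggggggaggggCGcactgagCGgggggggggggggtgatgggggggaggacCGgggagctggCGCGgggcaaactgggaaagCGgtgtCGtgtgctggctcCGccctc
Eef1a2: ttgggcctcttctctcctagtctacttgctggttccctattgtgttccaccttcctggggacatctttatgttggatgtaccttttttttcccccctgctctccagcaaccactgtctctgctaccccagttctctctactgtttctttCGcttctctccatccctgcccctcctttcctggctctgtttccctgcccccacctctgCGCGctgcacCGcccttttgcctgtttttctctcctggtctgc
Tuba1b: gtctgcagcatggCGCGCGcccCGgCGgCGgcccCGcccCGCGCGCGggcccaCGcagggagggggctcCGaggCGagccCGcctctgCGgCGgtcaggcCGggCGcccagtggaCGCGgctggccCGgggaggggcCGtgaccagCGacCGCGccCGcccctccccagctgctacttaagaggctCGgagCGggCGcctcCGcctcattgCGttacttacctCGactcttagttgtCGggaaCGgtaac
Alb: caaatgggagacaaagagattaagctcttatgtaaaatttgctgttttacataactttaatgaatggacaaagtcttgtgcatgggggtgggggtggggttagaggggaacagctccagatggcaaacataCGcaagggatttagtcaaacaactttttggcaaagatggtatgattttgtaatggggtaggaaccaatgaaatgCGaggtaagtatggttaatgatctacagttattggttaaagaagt

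Absent genes were not CG-poor in every case, and 405 of 2177 had 10 or more CG pairs. Members of the gene lists among them included Wnt3a with 45, Wnt2b with 43, Gdf10 with 42, Foxc1 with 32, Smad9 with 31 and Hoxa5 with 29. Nr4a3, the absent immediate early gene, had 26. In the other direction Sparc, bright at 7.76, 7.40 and 7.56, had 4 CG pairs.

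**Figure D5:**
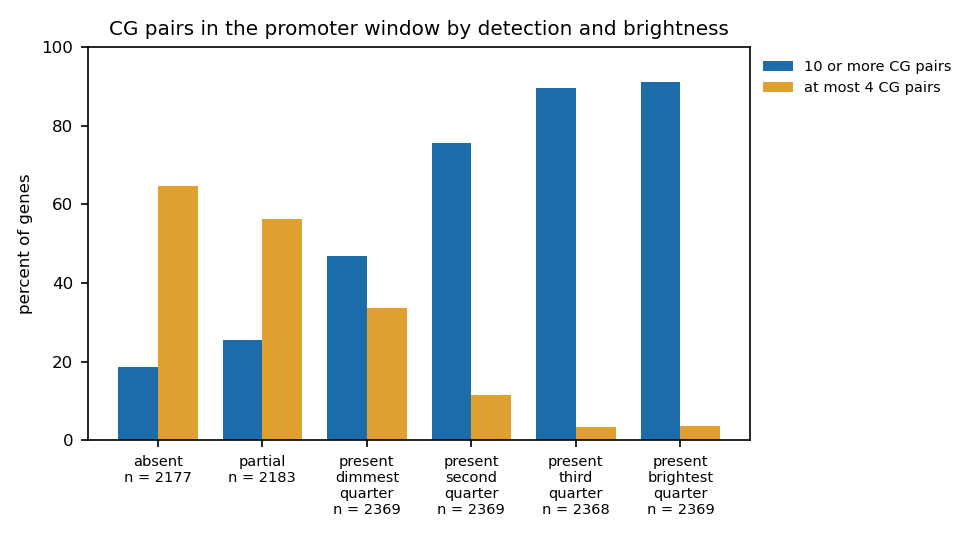
Percent of genes (vertical axis) whose 300-base window holds 10 or more (blue) or at most 4 (orange) CG pairs, for absent and partial genes and for present genes in 4 bins of equal size by signal. The blue bar rises from 18.6% of absent genes to 91.0% of the brightest present genes, and the orange bar falls from 64.7% to 3.67%.

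Other letters were counted on both strands of the same windows, and a match describes the letters only. The TATA box TATAAA was found in 24.4% of absent, 9.13% of present, 13.5% of all matched genes and 13.6% of all windows. The GC box GGGCGG was found in 16.4%, 60.9%, 48.0% and 35.7%, and it contains a CG pair, so it is not separate from the count above. The ETS-type motif CCGGAAGT was found in 1.01%, 7.57%, 5.54% and 3.89%, and the E-box CACGTG in 4.69%, 9.71%, 8.16% and 7.15%. Both hold a CG pair too. The octamer ATGCAAAT, which has none, was found in 3.03%, 1.56%, 1.84% and 1.74%. CCAAT, also without a CG pair, was as frequent in absent (39.0%) as in present (39.4%) windows, with 39.2% of all matched genes and 37.4% of all windows. Of the 4 printed stretches, which leave out the 50 bases after the start, Alb held CCAAT and the other 3 held GGGCGG, on either strand.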

How the data were processed

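Total RNA was extracted from whole cultures, treated with DNase and labelled for single-colour Agilent arrays, per the labels' protocols. The labels name a Cy5 dye while the files hold the green channel. The deposited files give linear probe intensity, already background-subtracted by Agilent Feature Extraction, per the file headers. The array design names build mm9, per the file headers. Control spots (3671 per array) and spots marked as outliers were left out, spots of a probe were averaged, and log2 intensity minus the log2 of the array's 75th percentile was used. That left 55681 probes, of which 445 had no value on an untreated array (425 on replicate 2). The authors' value table held the same deposited values and was used as an alternative.

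Of these probes 27656 were named, by unversioned RefSeq accession and the GRCm38.p6 gene table, giving 20972 symbols. Another 16194 probes target genomic intervals, and 11831 have another identifier, and both kinds went into the probe counts only. Detection was Agilent's well-above-background mark. A probe was tested if 1 or more groups had it well above background on each of their arrays, with the brightest kept per symbol (28493 features). The fit was limma 3.58.1 (R 4.3.3; lmFit and eBayes, 3 groups, 8 arrays, 5 residual degrees of freedom), with Benjamini-Hochberg adjustment. A fold written as at least N is a bound, the untreated mean against the lowest well-above-background signal of each array in the other group. On simulated data for the vehicle contrast (28493 features) the fit recovered 37 of 100 changes of 1 log2 unit and 76 of 100 changes of 2, with 4 false calls. The simulation changed 200 features and drew the noise of each independently, whereas the real vehicle contrast called 16375. Its recovery and false calls therefore do not describe the real fit. The number of arrays limits the precision.

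Genes named are members of the lists (all members of short lists; the brightest, the absent and those with a stated role in long ones), the 20 brightest symbols, the 10 widest over the untreated arrays, and in each contrast up to 10 symbols lost and 5 gained. The members, lists and this rule were chosen with earlier results of these data known. Promoter and miRNA sequences came from RefSeq (GRCm38.p6). A single promoter window was matched for 13835 symbols, several for 2693 and none for 4339. Alternatives covered detection, probe choice, scaling, background correction, filter, variance model, replicate block and arrays left out. Analyses used Python 3.11.15 with pandas 2.3.3 and numpy 2.4.6. Some list members are not reported here.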

Additional observations from a re-analysis of the deposited data

How the results depend on the processing

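The count of present symbols, 14733, ranged from 12519 (mean above the 95th percentile of olfactory receptor genes, chosen after seeing the data) to 17248 (positive and significant signal), and from 14797 to 15606 when 1 untreated array was left out. The share of list members present, 76.9% as the median over 103 lists, was 88.9% with positive and significant signal and with signal above the 99th percentile of negative controls, 68.4% when every probe was required and 62.5% with the olfactory threshold. The median brightness percentile of the named genes, 74.7, was 74.4 with normexp and 74.4 to 74.6 with 1 array left out. The median number of CG pairs of absent genes, 3, was 2 under both looser detection rules. Calls ranged from 10993 to 22919 (vehicle) and from 14099 to 23723 (4OHT) over all settings. With 1 array left out they ranged from 13449 to 16081 and from 15218 to 16642. Without untreated replicate 2, vehicle replicate 1 and 4OHT replicate 1 together they numbered 15410 and 17378.

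Quantile normalization turned the list medians, relative to all features, of reference genes (-0.076 vehicle, -0.10 4OHT) and cytosolic ribosomal proteins (-0.14 and -0.13), and moved naive (-1.04) and general pluripotency (-0.63) with 4OHT. Normexp moved, with vehicle, immediate early genes (-1.36), Erk targets (-1.80), general pluripotency (-0.87), Klf (-1.51), Zfp (-1.19) and Bcl2 genes (-0.46). With 4OHT it moved immediate early genes (-1.27), Erk targets (-1.60), BMP receptors, Smads and Ids (-1.08), naive pluripotency (-0.99), Zfp (-1.18) and Bcl2 genes (-0.54). Without a filter on dim probes the immediate early median with vehicle was -2.65, and the Erk target median with vehicle ranged from -2.61 to -2.04 with arrays left out, highest without vehicle replicate 2. The causes were not tested. Otherwise the medians of the lists named in this paragraph kept their direction under the alternatives run. They also stayed within the standard deviation of the list's baseline level over the untreated arrays. That spread is not the error of a difference from untreated. For general pluripotency it was 0.42, larger than the medians of -0.40 (vehicle) and -0.13 (4OHT), so staying within it shows little there. The medians of all other lists, among them the Ras to Rsk genes, were not examined under these alternatives. The split of calls did not keep its direction, since with no scaling 99.7% (vehicle) and 99.4% (4OHT) of calls were lower, against 27.7% and 31.4%. Of the shares present of single lists and the brightness percentiles of single genes, 336 moved by more than their own spread between the untreated arrays. The other 717 did not.

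Same-numbered untreated and treated arrays did not deviate alike throughout. The deviations of same-numbered untreated and vehicle arrays correlated at -0.09 and -0.55, and of untreated and 4OHT arrays at -0.18, -0.43 and 0.46. Deviations sum to 0 within a group, so these values are not independent. With 2 vehicle arrays, the -0.55 is the 0.55 of untreated replicate 2 with vehicle replicate 1, its sign changed. Among the untreated and treated pairs computed, untreated replicate 2 correlated best with 4OHT replicate 1. Same-numbered vehicle and 4OHT arrays correlated at 0.71 and 0.50, with the same limit, the number being all that the labels share. Whether the numbers pair the arrays cannot be decided from these values. With the replicate block 15059 (vehicle) and 16466 (4OHT) features were called, against 16375 and 17034 without it. Dim signals limit the absent and partial calls, and values under the olfactory threshold of -3.09 are close to background.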
